A study of Rattus norvegicus with 2 samples.

Results

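The let-7 family with miR-98 was described on microRNA (miRNA) arrays of rat tongue. Its members, listed on the array as rno-let-7a, rno-let-7b, rno-let-7c, rno-let-7d, rno-let-7e, rno-let-7f, rno-let-7i and rno-miR-98 and written here without the prefix for rat, were chosen by name, without their passenger strands. They are 8 of the 350 rat miRNAs of the array. They held 16 of the 938 miRNA probes. The study had 2 arrays, 1 with the label tumour and 1 with the label normal. Per the labels, the first held tongue squamous cell carcinoma of male Sprague-Dawley rats that drank the carcinogen 4NQO at 0.02 g/l from an age of 6 to 7 weeks, and the second held tongue of male Sprague-Dawley rats of the same age given distilled water. Each arm had 20 rats, tissue was taken at the end of week 36, and RNA came from 7 tumours and 7 normal tongues. Whether an array was hybridised with a single animal's RNA or with a pool is not stated in the labels. Both groups thus lacked replicate arrays, and differences between them were not tested. Errors are either the SD or SE over the spots of a probe or the error that the scanner software reports. For a member, the spot SDs or SEs of its 2 probes were combined as the error of their mean. The gap between the 2 probes does not enter.

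The let-7 miRNAs are among the most conserved miRNAs of animals. They pair through a common seed, the bases near the 5′ end that select target mRNAs, and are known to repress RAS, MYC and HMGA2 mRNAs. The protein LIN28 blocks their maturation in stem cells and embryos, and they are abundant in differentiated tissue. In many human carcinomas they are described as growth-restraining miRNAs.

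All 8 members had a mature sequence in RefSeq (GRCr8). They are shown because the members are told apart on the array by few bases. Capitals mark the seed, bases 2 to 8, which was the same in all 8.
let-7a: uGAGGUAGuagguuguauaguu
let-7b: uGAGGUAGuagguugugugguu
let-7c: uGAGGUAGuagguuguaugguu
let-7d: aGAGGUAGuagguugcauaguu
let-7e: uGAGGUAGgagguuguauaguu
let-7f: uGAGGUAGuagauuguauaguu
let-7i: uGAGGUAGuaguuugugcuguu
miR-98: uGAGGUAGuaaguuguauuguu

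Differences lay outside the seed. Counting from 1 at the 5′ end, with the base of let-7a first, let-7c carried A19G and let-7b carried A17G and A19G. let-7e carried U9G, let-7f carried G12A, and let-7d carried U1A and U16C. miR-98 carried G11A and A19U. let-7i was the most distant from let-7a, with G12U, A17G, U18C and A19U.

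Each member had 2 probes, which pair with its 3′ end and reach into the seed to different extents. The probes were 18 to 22 bases long. The 18-base probes paired with bases 5 to 22 of the miRNA, and only the 22-base probe of miR-98 paired with the whole miRNA. Members let-7a to let-7e each had a 19-base probe, and these 5 are shown because they cover the same stretch, bases 4 to 22. Capitals mark the bases unlike the let-7a probe.
let-7a: aactatacaacctactacc
let-7b: aacCaCacaacctactacc
let-7c: aacCatacaacctactacc
let-7d: aactatGcaacctactacc
let-7e: aactatacaacctCctacc

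The probes of let-7a, let-7b, let-7c, let-7d, let-7e and let-7f each differed at 1 base from the matching stretch of at least 1 other member. The probes of miR-98 differed from their nearest relatives, let-7a and let-7c, at 2 bases, and those of let-7i from let-7b at 3. Whether RNA of one member gave signal on the probes of another was not tested.

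The members come from several loci of the rat genome, given here for GRCr8. Genes of let-7a, let-7f and let-7d lie next to each other on the plus strand of chromosome 17, with the mature let-7a at chr17:16320145-16320166, let-7f at chr17:16320508-16320529 and let-7d at chr17:16322273-16322294, within the span of a long noncoding RNA gene. A second let-7f gene at chrX:24460052-24460073 neighbours miR-98 at chrX:24460663-24460684, both within the span of Huwe1, which encodes a ubiquitin ligase. let-7c at chr7:118683636-118683657 neighbours let-7b at chr7:118684044-118684065, and a further let-7c gene lies at chr11:29688127-29688148 beside miR-99a. A further let-7a gene lies at chr8:50805219-50805240 near miR-100. let-7e at chr1:67350243-67350264 lies between miR-99b and miR-125a. let-7i lies at chr7:60527935-60527956 on the minus strand. Gene spans alone were read, so exon or intron is not given. The array sums the genes of one mature miRNA, so the loci of let-7a, let-7c and let-7f could not be told apart.

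The arrays were on 1 slide and in 1 scan, and 104 miRNAs were detected on the tumour-labelled array and 88 on the normal-labelled array. Detection of a probe required over 50% of its spots to be well above background. As a check of the tissue, all 4 skeletal muscle miRNAs examined and all 7 epithelial ones were detected on both arrays, and 3 of the 4 leukocyte miRNAs on the array were. Before scaling, the muscle miRNAs summed to 9938 intensity units on the tumour-labelled array and 849 on the normal-labelled array, the epithelial ones to 2098 and 1876, and the leukocyte ones to 189 and 257. Each sum took a miRNA's probes detected on that array, and these were not always the same. miR-141 entered as 74.5 from 1 probe on the tumour-labelled array and 56.5 from 2 probes on the normal-labelled array. After scaling, log2 ratios of tumour-labelled over normal-labelled were 0.91 to 3.72 for the muscle list, -1.26 to -0.24 for the epithelial list and -2.41 to 1.43 for the leukocyte list. miR-21 and miR-31, which carcinomas of the human mouth often express at high levels, had scaled ratios of -3.26 and -3.93. Since this is opposite to the usual direction, each array is named by its label alone. Whether the labels were exchanged could not be told from the files. With exchanged labels every ratio given here would change sign, so that let-7e would be the highest member and let-7d the lowest. The part of muscle RNA in the family's values was not tested.

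All 8 members were detected on both arrays, and all 160 family spots of each array were well above background. let-7c was the brightest member on both. Its 2 probes averaged 1410 ± 49.2 intensity units on the tumour-labelled array and 715 ± 16.9 on the normal-labelled array (spot SD combined over the 2 probes, 8 to 9 spots per probe). It was the 4th brightest of all detected miRNAs on each array. The order of members is an order of signals and not of molecules, since each probe binds with its own strength.

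let-7a, let-7b and let-7f followed close to each other. let-7a gave 1239 ± 33.7 intensity units on the tumour-labelled array and 611 ± 18.8 on the normal-labelled array. let-7b gave 1207 ± 48.3 and 632 ± 28.3 on the same arrays, and let-7f gave 1199 ± 12.9 and 593 ± 12.5. Their order was let-7a, let-7b, let-7f on the tumour-labelled array and let-7b, let-7a, let-7f on the normal-labelled array. These neighbours were not separated beyond their spots. On the tumour-labelled array let-7a exceeded let-7b by 31.3 and let-7b exceeded let-7f by 8.37, against combined spot SDs of 58.9 and 49.9. On the normal-labelled array let-7b exceeded let-7a by 20.7 and let-7a exceeded let-7f by 18.3, against 34.0 and 22.6.

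The remaining members kept one order on both arrays, let-7i, let-7d, let-7e and miR-98, each step larger than the combined spot SD. let-7i gave 778 ± 27.9 intensity units on the tumour-labelled array and 511 ± 17.7 on the normal-labelled array. let-7d, processed from the chromosome 17 cluster, gave 570.5 ± 13.3 and 237 ± 10.0. let-7e gave 159 ± 7.67 and 114 ± 8.14. miR-98 was the dimmest at 45.6 ± 3.83 and 29.1 ± 2.20, which was above the dimmest detected probe of either array (18.3 and 18.2) and above the negative control spots (mean 1.21 and 2.64). let-7c was 30.9 times as bright as miR-98 on the tumour-labelled array and 24.6 times on the normal-labelled array.

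**Figure D1:**
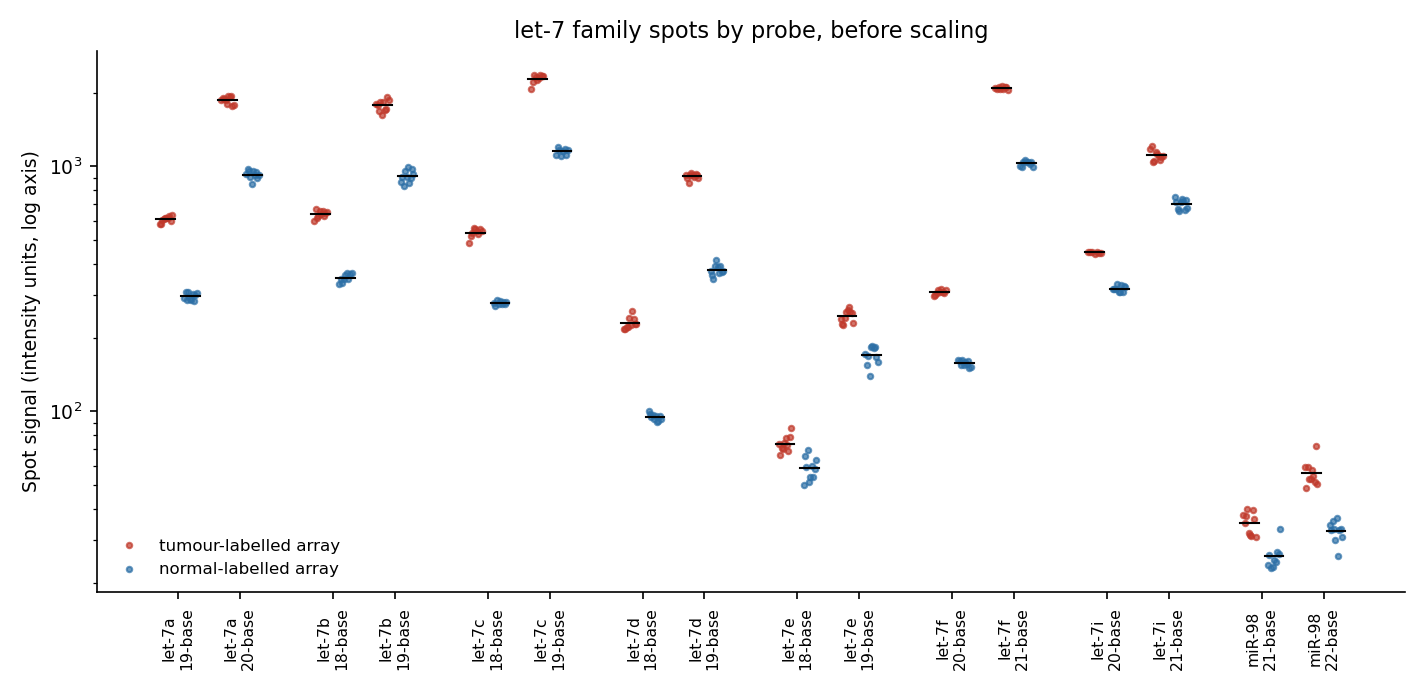
Signal of each spot of the 16 let-7 family probes, in intensity units on a log axis before scaling, with the tumour-labelled array left of the normal-labelled array; black bars are means over spots. Spots of an array lie close together, and for 14 of the 16 probes the ranges of the arrays do not overlap.

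The separation of raw spots included the overall difference in brightness between the arrays. Before scaling, the spot ranges of the arrays did not overlap for 14 of the 16 probes, the exceptions being the shorter probes of let-7e and of miR-98, and the tumour-labelled array was brighter in all 16. Scaling divided an array by the 75th percentile of the 140 probes detected on both, 525.6 and 277.5 intensity units. The family's own probes took part in setting these values, with 9 above the percentile on the tumour-labelled array and 10 on the normal-labelled array. Afterwards the ranges were separate for 7 probes. These were both probes of let-7d and the longer probe of let-7f, which were higher on the tumour-labelled array, and both probes of let-7i and the shorter probes of let-7e and miR-98, which were lower. For let-7a, let-7b and let-7c the scaled spots overlapped in both probes.

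The longer of a member's 2 probes was brighter on both arrays in all 8 members, although they differ in length by a single base. The gain differed between members and, by less, between arrays. In 5 of the 8 members it differed between the arrays by over 2 spot SE. Among these was let-7i, at 2.49 ± 0.040 on the tumour-labelled array and 2.22 ± 0.039 on the normal-labelled array. The gain was largest for let-7f, whose 21-base probe gave 6.82 ± 0.055 times the signal of its 20-base probe on the tumour-labelled array and 6.54 ± 0.077 times on the normal-labelled array (spot SE). For let-7d the factors were 3.97 ± 0.078 and 3.99 ± 0.077. The smallest gain was that of miR-98, at 1.59 ± 0.080 and 1.27 ± 0.064. A member's place in the order thus depended on which probe was read: by the longer probe alone, let-7f was second to let-7c on both arrays.

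**Figure D2:**
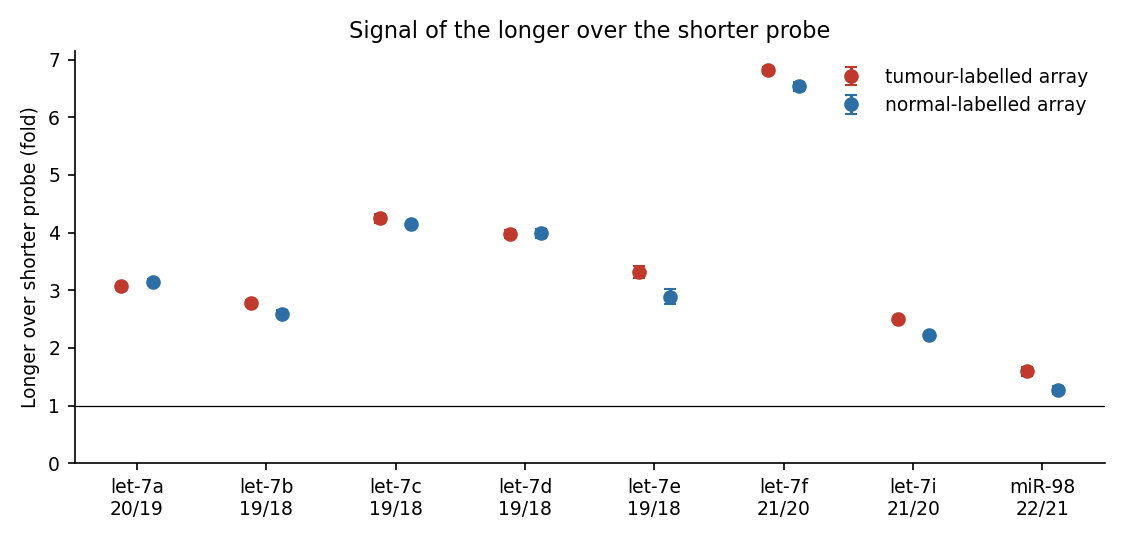
Signal of the longer over the shorter probe of each member (fold, linear axis), with the tumour-labelled array left of the normal-labelled array and error bars of 1 spot SE; numbers under the names are probe lengths in bases. The factor runs from 1.27 to 6.82 between members and differs far less between arrays.

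Shares of the family signal need no scaling between arrays. The shares of let-7a, let-7c, let-7d and let-7f were higher on the tumour-labelled array, by 4.22 percentage points in all, and those of the other members were lower by as much. let-7a, let-7b, let-7c and let-7f together gave 76.5% of the family signal on the tumour-labelled array and 74.1% on the normal-labelled array. let-7c held 21.3% ± 0.59 and 20.8% ± 0.39 (spot SD, in percentage points). The error of a share was taken from that member's own spots, without the spread of the other members. The shares of let-7b, 18.3% ± 0.60 and 18.4% ± 0.67, differed by less than their spot SD.

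Among the members with larger shifts, let-7i had the lower share on the tumour-labelled array, 11.8% ± 0.37 against 14.8% ± 0.44 on the normal-labelled array. let-7d had the higher share there, 8.63% ± 0.18 against 6.88% ± 0.27. let-7e held 2.41% ± 0.11 on the tumour-labelled array and 3.31% ± 0.23 on the normal-labelled array, and miR-98 held 0.690% ± 0.057 and 0.844% ± 0.063. The family as a whole made up 18.7% of the signal of the 104 miRNAs detected on the tumour-labelled array. On the normal-labelled array it made up 18.0% of that of the 88 detected there, a log2 ratio of 0.054. These totals held unlike sets of miRNAs and included the muscle miRNAs, at 9938 and 849 intensity units. The muscle signal thus lowered the family's percentage more on the tumour-labelled array, and the near-equal percentages depend on counting it. A percentage without the muscle miRNAs was not computed.

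**Figure D3:**
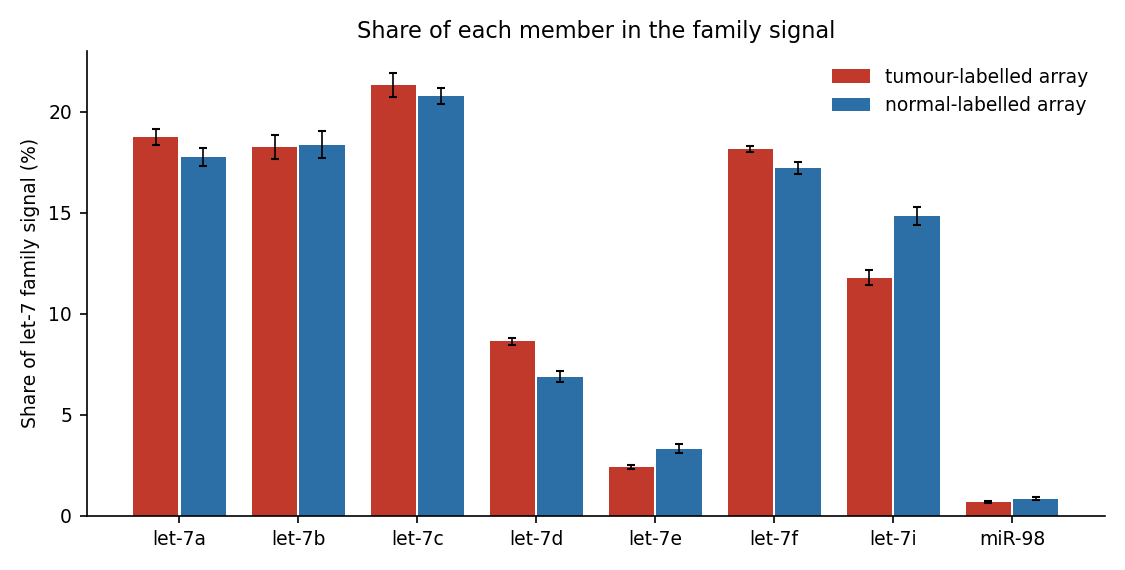
Share of each member in the summed let-7 family signal of its array (%), with the tumour-labelled array left of the normal-labelled array and error bars of 1 spot SD in percentage points, from that member's own spots alone. The widest gaps in percentage points are those of let-7i, with 11.8% against 14.8%, and let-7d, with 8.63% against 6.88%.

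The design asks how the carcinoma differs from normal tongue. On the scaled arrays 0 of the 8 members were 2-fold or more apart, against 35.3% of the 85 miRNAs with probes detected on both. Of all 85, 12.9% were 2-fold or more higher on the tumour-labelled array and 22.4% lower. Between let-7e at -0.49 and let-7d at 0.35 on the log2 scale, tumour-labelled over normal-labelled, the members' median was 0.018. The median of the 85 miRNAs was -0.46, within a range of -3.93 to 3.72. Of the 77 miRNAs outside the family, 11 (14.3%) lay within the range of the members. The family's ratios were 4 above 0 and 4 below, while 32 of the 85 (37.6%) lay above 0.

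The 19-base let-7d probe had spots of 859 to 938 intensity units (median 921) on the tumour-labelled array and of 347 to 415 (median 373) on the normal-labelled array. Its 18-base probe had spots of 216 to 257 and 90.8 to 100.3 on the same arrays, so the ranges stood apart in both probes. let-7d had the highest ratio, 1.27-fold higher on the tumour-labelled array (log2 ratio 0.35, spot SE 0.020). Its 2 probes gave values that differed by 0.0044. let-7a (0.11), let-7f (0.072), let-7c (0.048) and let-7b (-0.011) lay near 0, at most 0.12 apart. The probes of let-7b went different ways, -0.062 for the shorter and 0.040 for the longer.

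let-7e, let-7i and miR-98 were lower on the tumour-labelled array after scaling, although every probe's raw mean was higher there. The direction rested on the scaling: with the 75th percentile over all miRNA probes let-7i was at 0.14 and miR-98 at 0.18, with let-7e at -0.0036, and without the muscle miRNAs let-7i was at 0.0095 and miR-98 at 0.057, with let-7e at -0.13. The 21-base let-7i probe had raw spots of 1039 to 1212 intensity units (median 1101) on the tumour-labelled array and of 657 to 752 (median 718) on the normal-labelled array. The 19-base let-7e probe had spots of 226 to 266 (median 246) and of 139 to 184 (median 170) on the same arrays. The 22-base miR-98 probe had spots of 48.9 to 72.4 (median 53.7) and of 25.8 to 36.8 (median 32.9). Each of these raw differences was smaller than the ratio of the 75th percentiles of the arrays. let-7e was 1.40-fold lower (log2 ratio -0.49, spot SE 0.039), let-7i was 1.27-fold lower (-0.35, spot SE 0.017) and miR-98 was 1.23-fold lower (-0.30, spot SE 0.051). The probes of these members disagreed more. In let-7i the longer probe gave -0.26 and the shorter -0.43. In let-7e they gave -0.39 and -0.59, and in miR-98 -0.14 and -0.46. In 6 of the 8 members the longer probe had the higher ratio.

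**Figure D4:**
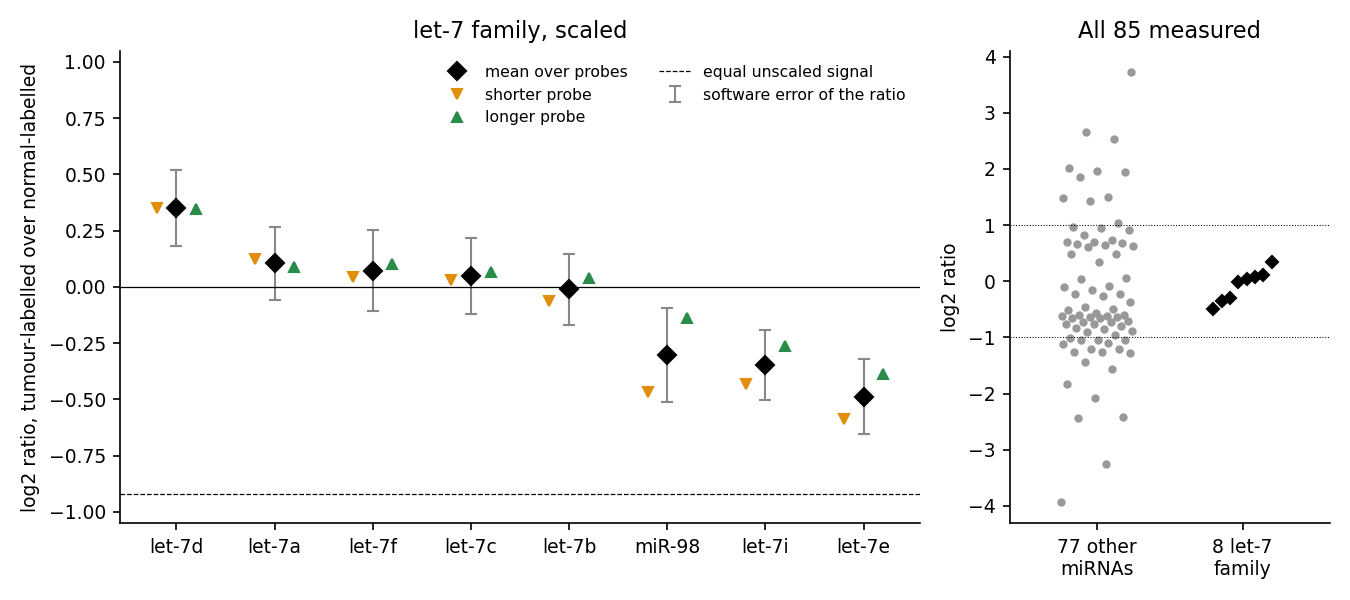
Left, log2 ratio of each member, tumour-labelled over normal-labelled, after scaling: diamonds are means over probes, triangles are the shorter and longer probe, bars are the software's error for the ratio of total signals, and the dashed line is where unscaled signals would be equal. Right, the 77 other miRNAs (grey) and the 8 members (black), with dotted lines at 2-fold; all 8 members lie between -0.49 and 0.35.

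Differences between members do not depend on dividing an array by a constant. let-7d stood 0.84 above let-7e on the log2 scale, 0.70 above let-7i and 0.65 above miR-98. The error the scanner software reports for a member's total signal is wider than the spread of spots, 0.16 to 0.21 for a log2 ratio against 0.010 to 0.051. let-7d against let-7e was the widest of the 28 pairs, with an SE of 0.24 by that wider error, which covers measurement within an array and not spread between animals. let-7a, let-7b, let-7c and let-7f differed by at most 0.12 among themselves, less than 1 such error. let-7d stood 0.24 to 0.36 above these members, with SEs of 0.23 to 0.25 by the same error. Of the 28 pairs, 8 were over 2 such SEs apart, each of them let-7e, let-7i or miR-98 against one of the other 5 members. The gaps are between ratios averaged over probes, while the error belongs to the total signal. By the total signal, let-7a (0.30) lay within 2 SEs of let-7i (-0.11), and let-7b (0.22) within 2 SEs of let-7e (-0.23). The 8 pairs came from 15 of that kind, and 0 of the remaining 13 pairs were so far apart. let-7e, let-7i and miR-98 were grouped by their low ratios in these same data. Wide gaps thus fall in that kind of pair by construction, and the split is a description.

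The level of the whole family moved with the scaling. Without scaling, every member was brighter on the tumour-labelled array, from a log2 ratio of 0.43 for let-7e to 1.27 for let-7d, with a median of 0.94. Then let-7a (2.04-fold) and let-7d (2.41-fold) were at least 2-fold higher, 2 of the 8, where 32.9% of the 85 miRNAs were higher and 5.88% lower by as much (38.8% either way). Scaling on the 19 positive control features detected on both arrays, chosen after seeing the data, left let-7d at 1.20 and a family median of 0.87. There 1 of 8 members was 2-fold or more higher, against 31.8% of all, with 5.88% lower and 37.6% either way. Leaving the muscle miRNAs out of the 75th percentile, likewise chosen later, gave a median of 0.38. The family's median lay 0.48 above that of all 85 miRNAs, a gap that such division cannot change. It was 0.37 with quantile normalization and 0.60 with normexp background correction (offset 50). With no filter on dim probes, where all 350 miRNAs entered, it was 0.94. There, probes below the lowest detected signal of their array were raised to it. The median of all 350, -0.92, was thus set by this floor and the scaling, so the gap of 0.94 was not a measured one.

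**Figure D5:**
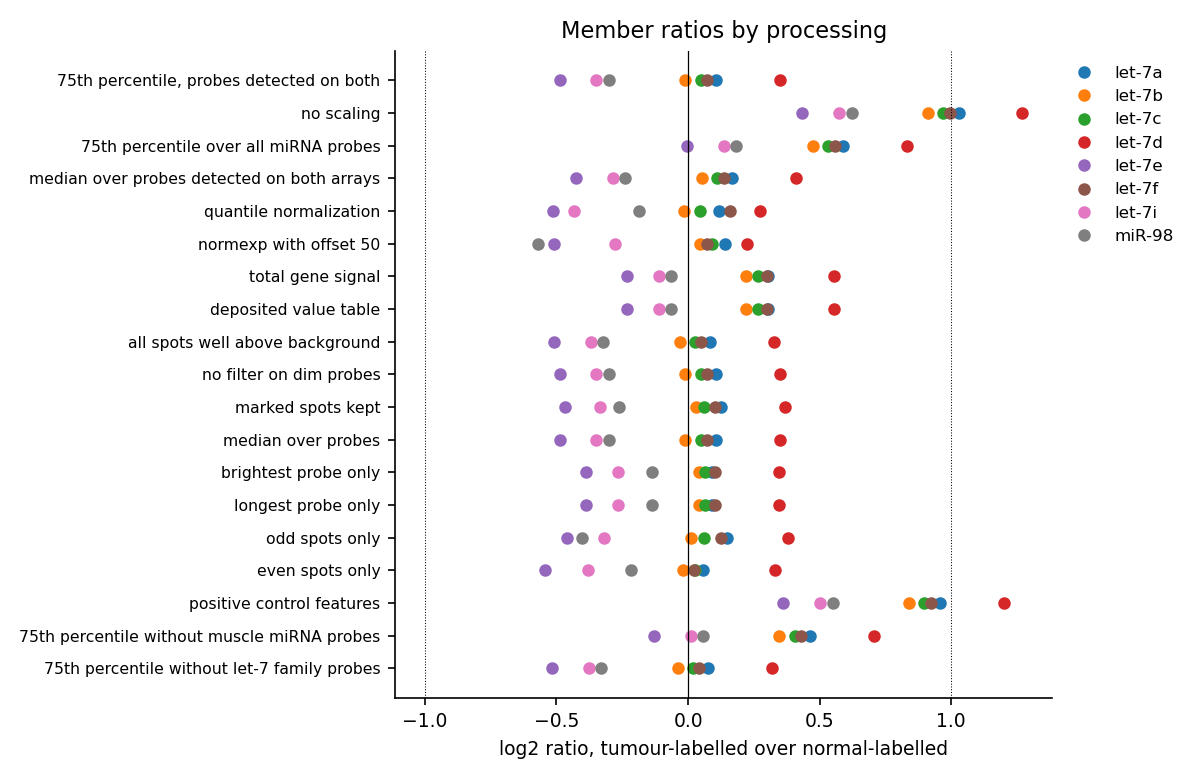
log2 ratio of each member, tumour-labelled over normal-labelled, under each processing (rows), with dotted lines at 2-fold. Dividing by a constant moves the 8 members together, while quantile normalization and normexp also change the gaps between them. let-7d stays the highest and let-7e, let-7i and miR-98 stay below the other 5 in every row.

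The closest relatives had the smallest typical gap between log2 ratios, with wide overlap between classes. The median gap was 0.058 over the 4 pairs with 1 differing base, 0.35 over the 7 with 2, 0.30 over the 9 with 3 and 0.41 over the 6 with 4. Among the 4 pairs of members that differ at 1 base, let-7a and let-7f were 0.034 apart, let-7a and let-7c 0.058, and let-7b and let-7c 0.059, but let-7a and let-7e were 0.59 apart. Pairs with 2 differences ran from 0.024 to 0.56, those with 3 from 0.083 to 0.84, and those with 4 from 0.048 to 0.65. let-7e and let-7i, which differ at 5 bases, were 0.14 apart, and let-7d and let-7i, which differ at 6, were 0.70 apart. Pairs share members, so these values are a description.

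Ratios of members encoded side by side were not separated beyond 2 SEs by the software's error. By the narrower spot SE, all such pairs but let-7a and let-7f were. In the chromosome 17 cluster let-7a was at 0.11 and let-7f at 0.072, with let-7d at 0.35. In the chromosome 7 cluster let-7c was at 0.048 and let-7b at -0.011. On the X chromosome let-7f stood beside miR-98 at -0.30. By the software's error, let-7d was 0.24 from let-7a (SE 0.23) and 0.28 from let-7f (SE 0.25). let-7f was 0.37 from miR-98 (SE 0.28). The spot SEs of these gaps were 0.025, 0.022 and 0.052. let-7a and let-7f were 0.034 apart (spot SE 0.019), and let-7b and let-7c 0.059 (spot SE 0.028). The single let-7f value sums its genes and is used here for both clusters.

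Of 5 miRNAs of the miR-99/100 and miR-125 families, which share clusters with let-7 genes, 4 were measured on both arrays. miR-99b, next to let-7e, had a log2 ratio of -1.21 and miR-125a-5p, on its other side, -0.83, each from 1 probe. With let-7e at -0.49, all 3 miRNAs of that locus were lower on the tumour-labelled array after scaling, but without scaling they were at -0.29, 0.087 and 0.43. miR-99a, beside a let-7c gene, was at 0.71 from 177 intensity units on the tumour-labelled array and 56.5 on the normal-labelled array, while let-7c itself was at 0.048. miR-125b-5p, a broadly expressed miRNA of the lin-4 family, was at -0.10. The 2 probes of miR-100 gave 25.1 and 82.0 intensity units on the tumour-labelled array and 2.49 and 11.9 on the normal-labelled array. miR-100 was detected on the tumour-labelled array alone, at least 1.32-fold higher there against the lowest detected signal of the normal-labelled array.

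The passenger strands let-7b*, let-7d*, let-7e* and let-7i*, which are mostly degraded after the mature strand is loaded, were not well above background on either array. Of their 16 probes the brightest gave 9.33 intensity units on the tumour-labelled array and 9.64 on the normal-labelled array, both from let-7b*. The 4 miRNAs outside the family whose log2 ratio was nearest to the family median were miR-23b (0.045), miR-23a (0.065), miR-345-5p (-0.087) and miR-125b-5p (-0.10). The miR-345-5p ratio came from 1 probe, at 32.5 intensity units on the tumour-labelled array and 18.2 on the normal-labelled array. The latter was near the lowest detected signal there. With 2 arrays such a likeness rests on a single ratio each.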

How the data were processed

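Cy3-labelled RNA was hybridised to Agilent 1-colour miRNA arrays. Per the file headers, the deposited intensity of each spot was made with Agilent Feature Extraction 10.5.1.1, which subtracted background and detrended spots without normalizing between arrays. The grid names build rn4. The labels' protocols name a kit made for messenger RNA, and the miRNA labelling step is not given. The deposited value table held the software's total gene signal on a linear intensity scale: all 208 and 201 features above 1 matched it within a relative 1e-06, and the other 187 and 194 were set to 1. The medians of this uncentred table were 1.70 and 1.32.

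Spots marked as outliers (7 and 6 of the 160 family spots) were left out, and 0 were saturated. The remaining 7 to 10 spots per probe were averaged, divided by the array's 75th percentile over probes detected on both arrays, and put on the log2 scale. A member's ratio is the mean over its probes, and calls are a rule of size, 2-fold. All members, every let-7 passenger strand on the array, a list of cluster neighbours and the 4 miRNAs nearest the family median are named. The members and lists were chosen with earlier results of these data known. The number of arrays limits the precision. Sequences were matched by name to RefSeq (GRCr8) and by letters to the probes. Python 3.11.15, pandas 2.3.3, R 4.3.3 and limma 3.58.1 (normexp) were used. The steps were tested on simulated data, and 18 alternatives were run, 3 of them chosen after seeing the data.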

Additional observations from a re-analysis of the deposited data

How the results depend on the processing

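let-7d had the highest ratio of the family in all 18 alternatives, and let-7e, let-7i and miR-98 lay below the other 5 members in all 18. The lead of let-7d was smaller in some. It was at 0.27 against 0.16 for let-7f with quantile normalization, and at 0.22 against 0.14 for let-7a with normexp. let-7e was the lowest in 17, the exception being normexp, which put miR-98 lowest at -0.57. The offset of 50 intensity units added in that run exceeded the miR-98 signal of either array, 45.6 on the tumour-labelled and 29.1 on the normal-labelled. Of the 18, however, 9 left every difference between members as it was, since they divided by a constant, did not touch these probes or took the median of 2 probes, which is their mean. The other 9 held 7 distinct sets of values, because the total gene signal equals the deposited table and the brightest probe is the longest. let-7c was brightest and let-7i, let-7d, let-7e and miR-98 were dimmest, in that order, on both arrays in all 18.

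The family median, 0.018, was 0.94 without scaling, 0.50 with the 75th percentile over all probes, 0.081 with the median of probes detected on both arrays, and 0.24 with both the total gene signal and the deposited value table. With alternatives chosen after seeing the data it was 0.87 on positive control features, 0.38 without muscle miRNAs and -0.011 with the family's own probes left out of the 75th percentile. The number of members 2-fold or more apart, 0, became 2 without scaling and 1 on control features. Over all 85 miRNAs the calls were 11 higher and 19 lower, but 28 and 5 without scaling. The family share of the signal, log2 ratio 0.054, was 0.027 with quantile normalization and 0.086 with normexp. With no filter, where probes below the lowest detected signal of their array were raised to it, it was 0.20. The share difference of 4.22 points was 5.45 with quantile normalization and 3.45 with the brightest or the longest probe alone.

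No paired analysis was possible because each group had 1 array. Dim signal limits miR-98 most, with spot CVs up to 12.1%.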
